A study of Mus musculus with 4 samples.

Results

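The effect of GW501516 on gene expression was described in the mammary gland of wild-type mice, from 2 of the 4 arrays of a series on MMTV-PPARd mice. GW501516 is a small synthetic molecule that activates the nuclear receptor PPARδ. One array held RNA of wild-type mice on standard chow and the other RNA of wild-type mice fed chow with GW501516 for 1 week. All mice were nulliparous females on the FVB background. The wild-type mice were littermates, matched in age, of mice that carry a PPARδ transgene, MMTV-PPARd, driven by the mouse mammary tumour virus promoter. That promoter is active in mammary epithelium and in some other tissues. The remaining arrays held MMTV-PPARd mice on either diet and are used below only beside the wild-type values. The sources used here do not give the mice's age or which mammary fat pads were excised. The labels gave the content of GW501516 as 0.005% in the protocol and the source name and as 0.001% in a treatment tag, and the values do not settle which is right.

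Each array was a single pool of RNA from 5 mice, 1 µg from each. There was no replicate, so no test was made, and each difference describes 2 pools whose number limits the precision. A value is the intensity of a probe set, a group of short probes for a transcript, on a linear scale without a fixed unit. Values under the 25th percentile of all values (4.36 on the log2 scale) were raised to it, and it is called the floor. A fold against such a value is a lower bound, written as at least N-fold, and no fold is given where both values lie under the floor. Each gene is represented by its brightest probe set over the 4 arrays. Of 12394 genes with a probe set, the 7836 that reached the median of all values (7.12 on the log2 scale) on at least 1 array were kept. Cxcr5, a chemokine receptor of B cells, lay just outside that limit with 134.8 on its brightest array, and Fcrla, also of B cells, lay just inside with 144.0. In bulk tissue, fewer cells of a type and less RNA per cell cannot be told apart.

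PPARδ acts as a partner of the retinoid X receptors on DNA elements that repeat the hexamer AGGTCA. Its known target genes serve the uptake, storage and oxidation of fatty acids, and agonists of it are known for their action on skeletal muscle and adipose tissue. The mouse mammary gland of a virgin female is a fat pad that holds a tree of epithelial ducts, with stroma, vessels and resident immune cells. The pads lie under the skin beside subcutaneous muscle, the inguinal pad encloses a lymph node, and the cervical pads lie close to the salivary glands.

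Between the wild-type pools 504 of the 7836 genes (6.43%) differed at least 2-fold. Of these 249 (3.18% of all kept genes) were higher on GW501516 and 255 (3.25%) were lower. Counted over 12482 kept probe sets in place of genes, 376 (3.01%) were higher and 366 (2.93%) lower. In MMTV-PPARd 632 genes (8.07%) differed at least 2-fold between the diets. Most genes differed little: 85.9% lay within 1.5-fold, and the median log2 difference of all genes was -0.04. Genes of skeletal muscle and of glandular secretions led the higher genes, and genes of lymphocytes led the lower ones. Of the 20 highest genes, 11 belonged to the skeletal muscle lists (60 of the 7836 kept genes) and 3 to the salivary and glandular list (14 kept). Those 3 were kept solely through the wild-type array on GW501516. Of the 20 lowest, 16 belonged to lists of lymphocytes, lymph node and lymphoid chemokines, which with the plasma cell list hold 64 kept genes. Some of the 16, such as Cd8b1 and Ccr7, were kept solely through the wild-type array on chow. The lists were chosen with earlier results of these data known, so these counts describe the ranking and support nothing further. At a limit of 8-fold, 82 genes were higher and 39 lower, and at 32-fold 14 were higher and 5 lower. Of the called genes, 28 of the higher reached the limit for kept genes solely on the wild-type array on GW501516 and 77 of the lower solely on that on chow, so these could be kept only where they are high. One value lay under the floor for 30 of the genes called higher and 28 of those called lower.

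**Figure D1:**
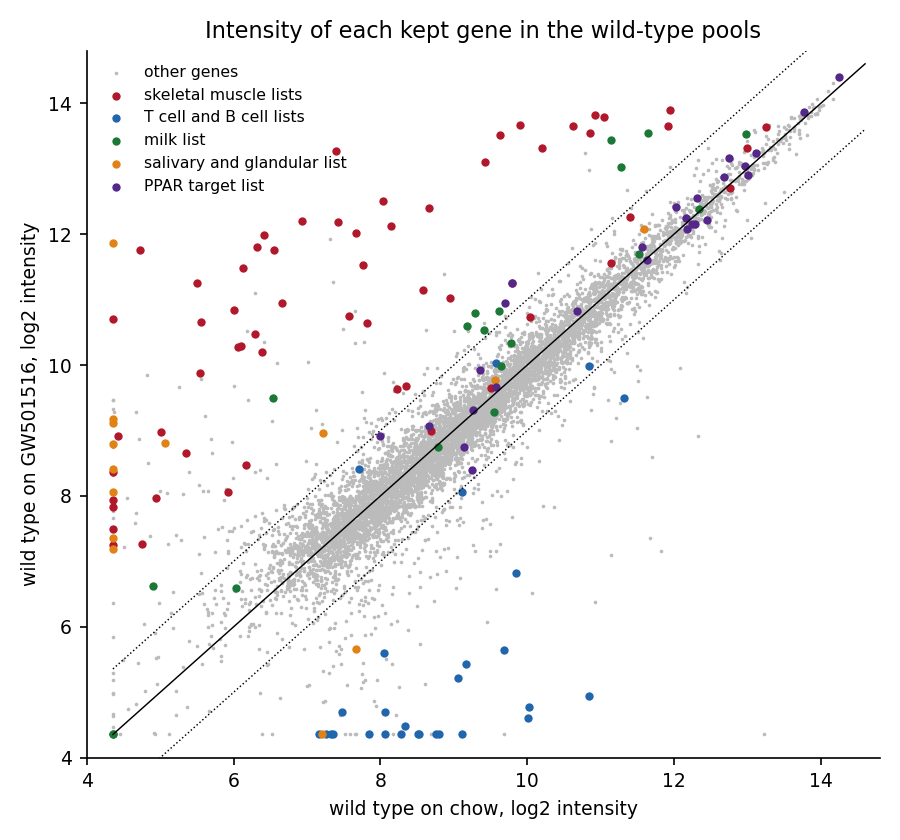
Intensity (log2) of each of the 7836 kept genes in wild type on chow (horizontal axis) and on GW501516 (vertical axis), with lower values drawn at the floor. The solid line marks equality and the dotted lines 2-fold, with colours for 5 groups of gene lists. Muscle genes lie above the upper dotted line at most chow levels, lymphocyte genes lie along the lower edge, and PPAR target genes lie close to the line of equality.

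The array of MMTV-PPARd on chow stood apart from the others in control probe sets. Median intensities lay between 137.15 and 144 over the 4 arrays, and each array had the same trimmed mean. A bacterial spike control, BioB, read 507.6, 438.1 and 519 on 3 arrays but 32.4 on that of MMTV-PPARd on chow, and Gapdh read 3573 there against 8730 to 12274 on the others. No difference within wild type uses that array. Among the 10 kept reference transcripts none differed by 2-fold. Gapdh, the glycolytic enzyme, was 1.41-fold higher (8730 and 12274) and Actb, cytoplasmic actin, read 13743 and 14252. The labelled tissue was borne out by its markers on both arrays, since Krt8, a keratin of luminal epithelium, read 6057 on chow and 5613 on GW501516 and Adipoq, the adipocyte hormone adiponectin, 13888 and 14186.

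Genes of the contractile apparatus of skeletal muscle were higher on GW501516 almost throughout. Over 4 lists of skeletal muscle genes (sarcomere, calcium handling, energy metabolism and regulators), 60 genes were kept. The 60 had a median log2 difference of 3.53, beside -0.04 over all genes. Of them 52 reached 2-fold on the higher side (beside 3.18% of all genes) and 0 on the lower (beside 3.25%). The 52 made up 20.9% of all the genes called higher, and 2 of the 52 were kept solely through the wild-type array on GW501516. By list, 24 of 25 kept sarcomere genes, 11 of 12 of calcium handling, 13 of 18 of energy metabolism and 4 of 5 regulators were at least 2-fold higher.

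Fast-fibre myosin heavy chains, the motors of the thick filament, were among the highest of all. Myh1, the IIX isoform, read 168.9 on chow and 9835 on GW501516, 58.2-fold higher. Myh4, the IIB isoform, read 1573 and 12853, 8.17-fold higher. Myh2, the IIA isoform, read 11.8 and 1672, at least 81.6-fold higher. These genes are close copies of each other, and the Myh1 probe set is of a type that can bind related transcripts, so their separate levels are uncertain. All 3 genes were also detected in MMTV-PPARd mice on chow, where Myh1 read 1194.

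Thin-filament and Z-disc genes had the same direction. Acta1, skeletal α-actin, read 3926 on chow and 15181 on GW501516, 3.87-fold higher. Ttn, the giant spring protein titin, read 94.0 and 3459, 36.8-fold higher. Tcap, the telethonin that caps titin, read 122.1 and 4691, 38.4-fold higher. The log2 differences of the sarcomere list ran from 0.87 for Tpm2, a tropomyosin, to 6.35 for Myh2. Myot (45.2-fold), Smpx (40.9-fold) and Actn2 (34.3-fold), all of Z-disc or sarcomere-linked proteins, were also among the 20 highest genes.

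Calcium handling followed. Ryr1, the calcium release channel of the sarcoplasmic reticulum, read 64.1 and 1829, 28.5-fold higher. Atp2a1, the pump that returns calcium to it in fast fibres, read 172 and 4641, 27.0-fold higher. Pvalb, the calcium buffer parvalbumin of fast fibres, read 1177 and 10163. The only kept member under 2-fold was Asph (726.8 and 802.8), which is expressed outside muscle as well.

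In the energy list many muscle isoforms, though not all, stood apart from enzymes shared with other tissues. Ckm, the muscle creatine kinase, read 2119 on chow and 14169 on GW501516. Mb, the oxygen carrier myoglobin, read 85.6 and 4056, 47.4-fold higher. Ckmt2, the mitochondrial creatine kinase of muscle, was 53.5-fold higher (45.5 and 2436). By contrast Cox8b, a cytochrome oxidase subunit of muscle that is also present in brown fat, read 6911 and 6684. Ldha, lactate dehydrogenase A, read 8122 and 10203. Among glycolytic enzymes a split between muscle and other forms appeared. Of 22 kept genes 3 were at least 2-fold higher, beside 3.18% of all genes. These were Pgam2 (22.2-fold), Eno3 (12.9-fold) and Pfkm (5.94-fold), the muscle forms of their enzymes, whereas Pgam1 read 2547 and 2081 and Pfkl 628.4 and 575.4.

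Regulators of muscle differed unevenly. Myf6, a myogenic transcription factor of mature fibres, read 6.0 and 227.3, at least 11.1-fold higher, and Cav3, the muscle caveolin, 18.1 and 330.4, at least 16.1-fold higher. Mef2c, a transcription factor of muscle and other tissues, was 2.53-fold higher (325.8 and 824.1) and Fbxo32, a ubiquitin ligase of muscle atrophy, 2.65-fold higher (299.8 and 795.4). Factors of muscle precursors stayed below the limit for kept genes on every array: Myod1 read 15.9 and 56.5, Myog 12.0 and 53.9, Myf5 0.8 and 16 and Pax7 7.2 and 7.3. So did Myh7, the slow myosin heavy chain, at 18.8 and 75.0, and Myl2, its light chain, at 9.5 and 104.6. Tnnt1, the slow form of troponin T, was kept and read 13.3 and 180.2.

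The size of the difference varied with the level on chow. The 13 muscle genes at 1000 or more on chow had a median log2 difference of 1.74, the 21 between 100 and 1000 had 3.73, and the 26 under 100 had 4.18. This order is a description, since the chow value enters both the class and the difference. Markers of heart and smooth muscle did not share the pattern. Of 5 kept genes 0 were called, beside 6.43% of all genes. Acta2, smooth muscle α-actin, read 7356 and 8236, and Myh11, smooth muscle myosin, 394.2 and 452.9. The heart genes Myh6, Nppa and Tnni3 read under the floor on all 4 arrays.

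Seen over the 4 arrays, wild type on chow had the lowest summed intensity of the 25 sarcomere genes, 19420. MMTV-PPARd on chow read 42780, MMTV-PPARd on GW501516 135466 and wild type on GW501516 141964. Thus the pools on GW501516 were alike and those on chow differed from each other by more than those on GW501516 did. In MMTV-PPARd the sum was 3.17-fold higher on GW501516, against 7.31-fold in wild type, and the difference between these folds was not tested. The contrast of the chow pools and the 3.17-fold use the MMTV-PPARd array on chow, which stood apart in control probe sets.

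**Figure D2:**
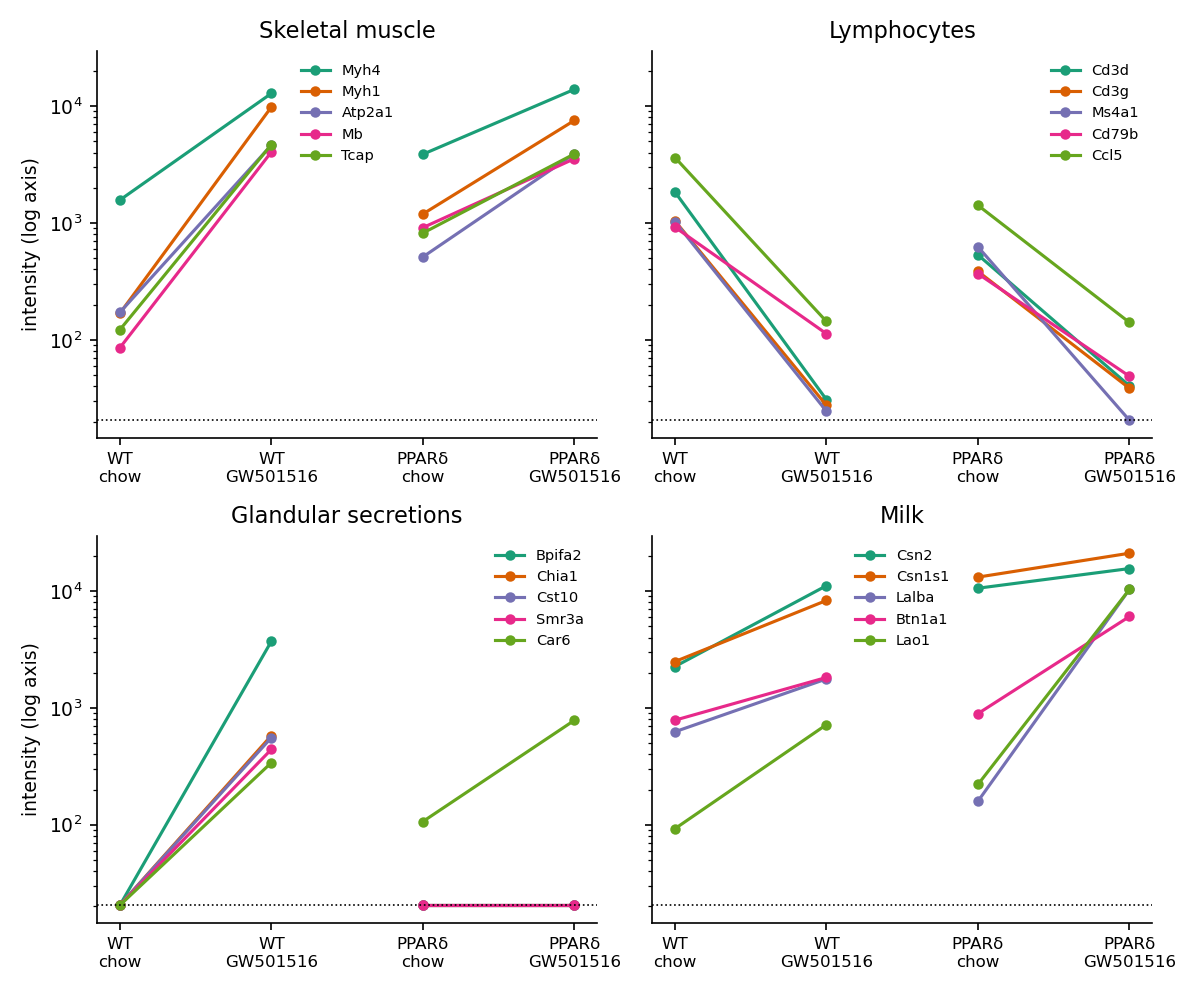
Intensity on a log axis of 5 genes in each of 4 groups on the 4 arrays, with lines joining chow and GW501516 within a genotype (WT, wild type, and PPARδ, MMTV-PPARd). Each point is 1 pool of 5 mice, and the dotted line is the floor, at which lower values are drawn. Within each genotype muscle genes are higher and lymphocyte genes lower on GW501516, whereas Bpifa2, Chia1, Cst10 and Smr3a are above the floor only for wild type on GW501516.

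Promoters are shown for 3 muscle genes that differed and that hold a MEF2 match. MEF2 and MyoD family factors are the known regulators of muscle genes. The windows run from 250 bases before to 50 after the start site in RefSeq (GRCm38.p6), on the coding strand. Capitals mark matches to the MEF2 motif and to CAGCTG, an E-box form bound by MyoD family factors, searched on both strands with no overlap between them. Myh1 lies at chr11:67199852-67200151 (plus strand), Myh4 at chr11:67237562-67237861 (plus strand) and Pgam2 at chr11:5803747-5804046 (minus strand).
Myh1: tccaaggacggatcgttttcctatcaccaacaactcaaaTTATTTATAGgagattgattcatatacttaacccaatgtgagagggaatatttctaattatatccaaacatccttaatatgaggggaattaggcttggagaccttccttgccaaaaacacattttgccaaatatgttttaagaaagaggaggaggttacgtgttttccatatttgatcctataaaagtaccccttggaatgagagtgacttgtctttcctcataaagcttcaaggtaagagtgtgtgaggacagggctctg
Myh4: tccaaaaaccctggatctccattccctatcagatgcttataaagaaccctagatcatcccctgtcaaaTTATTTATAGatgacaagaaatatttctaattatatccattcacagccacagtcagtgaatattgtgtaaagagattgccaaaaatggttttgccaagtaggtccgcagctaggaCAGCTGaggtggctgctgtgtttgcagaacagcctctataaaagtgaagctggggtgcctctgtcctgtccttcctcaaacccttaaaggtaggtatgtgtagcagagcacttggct
Pgam2: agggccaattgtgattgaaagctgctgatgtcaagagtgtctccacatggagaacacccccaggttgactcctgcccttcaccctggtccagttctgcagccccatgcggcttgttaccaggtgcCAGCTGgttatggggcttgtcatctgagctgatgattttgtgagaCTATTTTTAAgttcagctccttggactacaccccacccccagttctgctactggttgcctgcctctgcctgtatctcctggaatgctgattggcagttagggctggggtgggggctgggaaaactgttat
A MEF2 match was found for 6 of the 45 kept muscle genes with a promoter in the table (13.3%), beside 1.89% of all 27025 promoters. CAGCTG was found for 22 of the 45 (48.9%), beside 16.1% of all. The 6 with a MEF2 match were Myh1, Myh4, Myoz2, Pgam2, Pvalb and Ttn. The 3 promoters shown are among these 6, so they are not typical of the 45. A match is a description of letters and not evidence of binding.

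Genes of T cells were lower on GW501516. Of 17 kept T cell genes 15 were at least 2-fold lower (beside 3.25% of all genes) and none was 2-fold higher. The 17 had a median log2 difference of -3.74. Since 9 of the 15 reached the limit for kept genes solely on the wild-type array on chow, this count and median are partly set by that limit. With no such limit the median was -3.36. Cd3d, a subunit of the T cell receptor complex, read 1841 on chow and 30.8 on GW501516, 59.8-fold lower. Cd3g, another subunit, read 1040 and 27.5, 37.8-fold lower. Cd8b1, the coreceptor chain of cytotoxic T cells, read 550.9 and 1.5, at least 26.9-fold lower. Il7r, the receptor for the survival cytokine interleukin 7, was 16.4-fold lower (824.5 and 50.3) and Ccr7, which guides lymphocytes into lymph nodes, at least 21.0-fold lower (431 and 4.0). The exceptions were Thy1, also made by fibroblasts (1829 and 1010), and Zap70, a kinase of the receptor pathway (208.9 and 339.3), whose other probe set had a log2 difference of -2.80. Cd4 read under the floor on all arrays.

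B cell genes followed the same direction. Of 11 kept genes 10 were at least 2-fold lower (beside 3.25% of all genes), with a median of -3.03. Of the 10, 5 were kept solely through the wild-type array on chow. Ms4a1, which encodes the surface protein CD20, read 1028 and 24.5, 41.9-fold lower, and its other probe set had a log2 difference of -4.52. Cd79b, a signalling chain of the B cell receptor, read 920.4 and 112.8. Pou2af1 and Spib, transcription factors of B cells, had log2 differences of -4.44 and -4.17 or beyond, with values on GW501516 (10.4 and 13.0) under the floor. Ebf1, a B cell factor that adipocytes also express, was the exception (763.6 and 1044). Plasma cell genes did not follow as a group: Igha, the heavy chain of immunoglobulin A, was 2.19-fold higher (229.4 and 502.6), Tnfrsf13b was 3.84-fold lower and Xbp1, a secretory factor, read 8609 and 7848.

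Genes shared by lymphoid cells and those that draw or house them were lower too. Of 14 kept lymphoid chemokine, cytokine and signalling genes 13 were at least 2-fold lower (beside 3.25% of all genes), with a median of -2.38. Of the 13, 3 were kept solely through the wild-type array on chow, so the count is partly set by the limit. Ccl5, a chemokine in the separate list of natural killer and cytotoxic cells, read 3633 and 143.6, 25.3-fold lower. Ltb, lymphotoxin β of lymphoid organs, read 1948 and 83.1, 23.4-fold lower. Ptprc, the pan-leukocyte protein CD45, read 2884 and 523.6. Among 9 kept genes of lymph node stroma and vessels 4 were at least 2-fold lower, with a median of -0.90 that was -0.38 with the floor at the 40th percentile of all values. The lowest of all kept genes was Glycam1, a mucin of high endothelial venules and of milk-secreting epithelium, which read 9535 on chow and 2.2 on GW501516, at least 465-fold lower. In MMTV-PPARd it read 8128 and 4207. Cxcl13, the chemokine of B cell follicles, was 3.09-fold lower (2189 and 708.7) and Madcam1, an addressin of venules, 2.05-fold lower (87.9 and 42.8).

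Macrophage genes gave a smaller count. Beside the counts in this paragraph, 3.25% of all genes were at least 2-fold lower and 3.18% higher. Of 20 kept macrophage genes 3 were at least 2-fold lower, with a median of -0.28. These were Marco, a scavenger receptor (410.8 and 1.0, a log2 difference of -4.32 against the floor), Aif1 (695.9 and 201.1) and Fcgr1 (380.3 and 144.8). Csf1r, the receptor for the macrophage growth factor, read 5488 and 5627, and Adgre1, the F4/80 antigen, 465.3 and 584.8. Of 7 kept dendritic cell genes 3 were at least 2-fold lower, with a median of -0.62. Irf8, a factor of dendritic cells and B cells, read 717.7 and 142.7, 5.03-fold lower, and Ccl22, a chemokine of dendritic cells, 417.8 and 18.2, at least 20.4-fold lower. Of 8 kept neutrophil and mast cell genes 1 was at least 2-fold higher, Ltf, and 2 lower, S100a9 (173 and 52.2) and S100a8 (257.5 and 123.3). Ccl22 and S100a9 reached the limit for kept genes solely on the wild-type array on chow. Of 7 kept genes of antigen presentation by MHC class II 4 were at least 2-fold lower, among them Cd74, the invariant chain (2971 and 975). H2-Oa, a class II regulator of B cells, was 11.8-fold lower (297.6 and 25.3). Of 14 kept interferon response genes 11 were below 0 (beside 54.9% of all) and 2 at least 2-fold lower, Usp18 (2.40-fold) and Tap1 (2.02-fold), with a median of -0.62. The lymphocyte lists were lower on the same array, and their part in the class II and interferon values was not tested.

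The summed intensity of the 17 T cell genes was 12147 in wild type on chow, 2377 in wild type on GW501516, 4991 in MMTV-PPARd on chow and 2254 in MMTV-PPARd on GW501516. Wild type on chow was thus highest for T cell genes and lowest for sarcomere genes. The muscle and lymphocyte differences lay on the same 2 arrays, and the part of tissue composition in either was not tested.

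**Figure D3:**
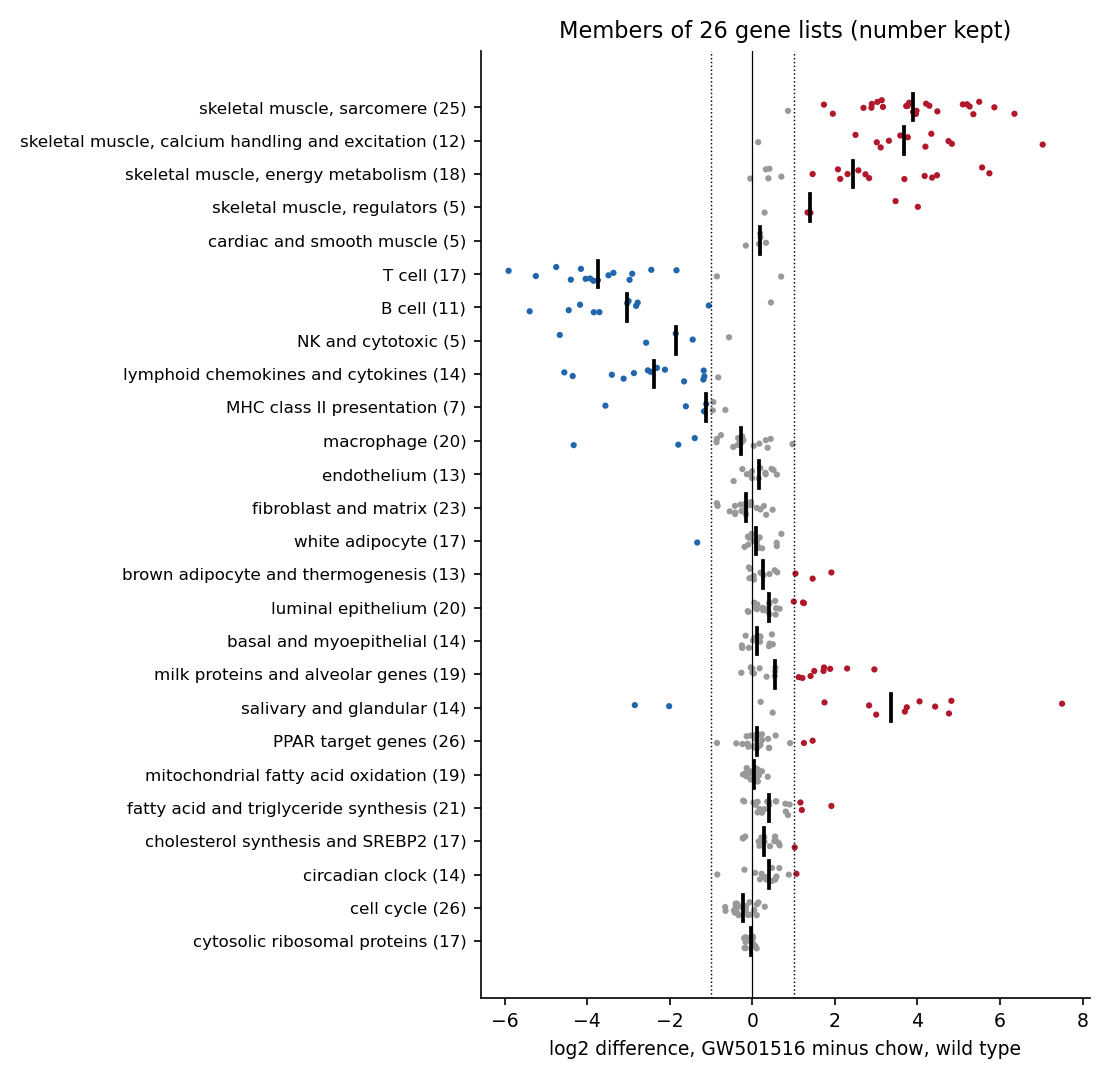
Log2 difference of each kept member (points) of 26 gene lists in wild type, GW501516 minus chow, with the list's median as a black bar and the number kept in brackets. Red points are at least 2-fold higher and blue points at least 2-fold lower (dotted lines). The skeletal muscle medians lie between 1.41 and 3.89, the T cell and B cell medians at -3.74 and -3.03, and those of fat, stroma, epithelium and the PPAR targets within 0.40 of 0.

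Secretory genes of salivary and related glands included several that were detected on no array but that of wild type on GW501516. Of 14 kept genes 10 were called higher and 2 lower, but 6 of the 10 were kept solely through that array and both lower ones solely through that on chow, so the counts are partly set by the limit and support nothing. Klk1, a tissue kallikrein below the limit, read lower on GW501516 on its 3 probe sets, at 93.9 and 30.3, 103.7 and 14.7, and 85.6 and 17.8. Bpifa2, the parotid secretory protein, was the highest of all kept genes: it read 6.3 on chow and 3719 on GW501516, at least 181-fold higher, and 1.3 and 9.4 in MMTV-PPARd on chow and on GW501516. Cst10, a cystatin, read 1.4 and 557 in wild type and 1.4 and 1.7 in MMTV-PPARd. Chia1, an acidic chitinase, read 1.3 and 579.9, and Smr3a, a submaxillary gland protein, 3.4 and 441.7, and both were under 5 in MMTV-PPARd. These 4 genes were under the floor on the 3 other arrays. Dnase1 (at least 13.0-fold), Car6 (at least 16.6-fold) and Egf, the epidermal growth factor (at least 8.01-fold), were also higher. Amy1, amylase, read 3079 and 4338 and Aqp5, a water channel, 755.9 and 869.8. Prol1 and Dmbt1 were lower, at 147.2 and 6.1 and at 203.4 and 50.4. Whether salivary tissue was present in that pool was not tested.

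Milk protein genes were moderately higher. Of 19 kept genes 9 reached 2-fold on the higher side (beside 3.18% of all genes) and 0 on the lower (beside 3.25%). The median was 0.56. Glycam1, also of milk-secreting epithelium, was placed in the lymph node list and is not in these counts. It was at least 465-fold lower. Csn2, β-casein, read 2258 on chow and 11105 on GW501516, 4.92-fold higher, and its other probe set had a log2 difference of 2.72. Csn1s2a, an α-casein, read 3215 and 11884, 3.70-fold higher. Csn1s1, another α-casein, read 2490 and 8302, 3.33-fold higher. Lalba, the α-lactalbumin of lactose synthesis, read 624.5 and 1768 and Lao1, an amino acid oxidase of milk, 92.5 and 718.6, 7.77-fold higher. Wap, the main whey protein of mice, read 29.8 and 98.6, whereas Csn1s2b and Olah were under the floor on both wild-type arrays.

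Not every milk gene differed. Csn3, κ-casein, read 8043 and 11756, Elf5, the alveolar transcription factor, 882.3 and 1295, and Stat5a, which carries the prolactin signal, 745.9 and 621. Btn1a1, a protein of the milk fat globule, was 2.32-fold higher (784.4 and 1821), and Mfge8, another, read 5196 and 5351. The caseins were already brighter in MMTV-PPARd on chow, where Csn2 read 10562, than in wild type on chow, and Lalba read 159 there and 10325 on GW501516. The promoters of Csn2 (chr5:87699376-87699675, minus strand) and Csn1s1 (chr5:87665958-87666257, plus strand) are shown, with the same window and build, since casein genes are classic STAT5 targets. Capitals mark the palindrome TTCNNNGAA.
Csn2: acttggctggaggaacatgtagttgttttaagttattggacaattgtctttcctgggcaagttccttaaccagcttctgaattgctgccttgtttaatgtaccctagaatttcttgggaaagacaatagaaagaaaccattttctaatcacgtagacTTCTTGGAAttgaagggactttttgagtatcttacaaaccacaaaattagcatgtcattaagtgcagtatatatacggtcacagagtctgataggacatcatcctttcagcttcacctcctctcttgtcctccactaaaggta
Csn1s1: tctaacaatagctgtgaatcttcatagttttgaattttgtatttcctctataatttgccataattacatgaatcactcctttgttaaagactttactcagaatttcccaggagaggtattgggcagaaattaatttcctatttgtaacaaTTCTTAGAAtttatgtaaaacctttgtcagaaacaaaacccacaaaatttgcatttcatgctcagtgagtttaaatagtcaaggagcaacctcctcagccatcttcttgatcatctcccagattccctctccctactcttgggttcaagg
The palindrome was found for 3 of 14 kept milk genes with a promoter in the table (21.4%), beside 8.47% of all promoters. Csn2 and Csn1s1 are among these 3, so they are not typical of the 14.

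Most luminal genes were slightly higher, with a smaller median than the milk genes. Of 20 kept luminal genes 3 were at least 2-fold higher (beside 3.18% of all genes), and the median was 0.40. Of the 20, 18 were above 0, beside 45.0% of all genes. Cdh1, the adhesion protein E-cadherin, lay just inside the limit (454.1 and 912.1, 2.01-fold). Cited1, a coregulator of oestrogen response, was 2.34-fold higher (679.5 and 1593) and Muc1, an apical mucin, 2.38-fold higher (27.6 and 65.7). Keratins 18 and 19 read 5620 and 6094, and 4450 and 4854. Of 14 kept basal and myoepithelial genes 0 were called (beside 6.43% of all genes), with a median of 0.11. Krt5, the basal keratin, read 231 and 326.3.

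White adipocyte and stromal genes had medians close to 0. Of 17 kept white adipocyte genes only Nnat, neuronatin, was called (923.9 and 366.8, 2.52-fold lower), beside 6.43% of all genes called. The median was 0.10. Lep, the hormone leptin, read 1014 and 1002. Of 13 kept genes of brown fat and thermogenesis 3 were at least 2-fold higher, beside 3.18% of all genes. These were Elovl3 (95.3 and 359.7), Fabp3 and Ppargc1a. Ucp1, the uncoupling protein of brown fat, read 3316 and 5046, 1.52-fold higher. Of 23 kept fibroblast and matrix genes 0 were called (beside 6.43% of all genes), with a median of -0.16. Col1a1, a chain of type I collagen, read 2782 and 2280.

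The receptor for the agonist was not detected in wild type. Ppard was read by a single probe set at 2.1 on chow and 1.5 on GW501516, under the floor, and at 1943 and 4224 in MMTV-PPARd. Whether the probe set reads transgene and endogenous transcripts equally was not tested, so the value sets no level for endogenous Ppard. Pparg, the adipocyte receptor, read 1770 and 1555, and Ppara 147.9 and 122.6. Rxra, a partner receptor, read 591.1 and 528.6. Among 13 kept receptors, partners and coregulators 1 was at least 2-fold higher, beside 3.18% of all genes. This was Ppargc1a, a coactivator of mitochondrial genes (165.4 and 341.6, 2.07-fold), and the median of its 4 other probe sets was 1.23.

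Known PPAR target genes were near equality in wild type. Of 35 listed genes 30 had a probe set and 26 were kept. Of these, 2 were at least 2-fold higher (beside 3.18% of all genes) and 0 lower, and 18 were above 0 (beside 45.0% of all). The median log2 difference was 0.11. Fabp3, a fatty acid carrier of muscle, heart and mammary epithelium, read 884.2 on chow and 2436 on GW501516, 2.76-fold higher. Acaa1b, a peroxisomal thiolase, read 828.8 and 1973, 2.38-fold higher. Both genes also read higher on GW501516 in MMTV-PPARd, Fabp3 at 4160 and 14533 and Acaa1b at 3838 and 6432.

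Targets most often used to follow PPARδ activity differed by less. Pdk4, the kinase that shuts off pyruvate oxidation, read 4172 and 5446, 1.31-fold higher. Angptl4, a secreted inhibitor of lipoprotein lipase, read 4852 and 4556. Plin2, a lipid droplet coat, read 5063 and 5977, 1.18-fold higher. Cpt1a, the gate of fatty acid entry into mitochondria, read 764.8 and 810.1. Ucp3, an uncoupling protein of muscle and brown fat, lay just outside the limit (255.7 and 482.3, 1.89-fold higher), and its other probe set had a log2 difference of 0.97.

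Only 8 of the 26 were below 0. Vnn1, a pantetheinase and PPAR target of liver, read 609.7 and 337.1, 1.81-fold lower, and Plin5, a droplet protein of oxidative tissue, 562.1 and 430.2. The bright genes of fat uptake were near equal on their brightest probe sets. Cd36, the fatty acid transporter, read 8854 and 9660, Lpl, lipoprotein lipase, 13926 and 14879, and Fabp4, the adipocyte fatty acid carrier, 19396 and 21520. Dimmer probe sets had log2 differences of 0.25 and 0.64 for Cd36, 0.17 for Lpl, and 0.05, 0.71 and 0.92 for Fabp4. Acot1, a thioesterase with a close copy in Acot2, read 656.7 and 972.6. Acot2, Cyp4a14, Fabp1 and Fgf21 did not reach the limit for kept genes on any array. Fabp3, Ucp3 and Ppargc1a are also expressed in skeletal muscle, whose genes were higher on the same array, and the part of muscle in their values was not tested.

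**Figure D4:**
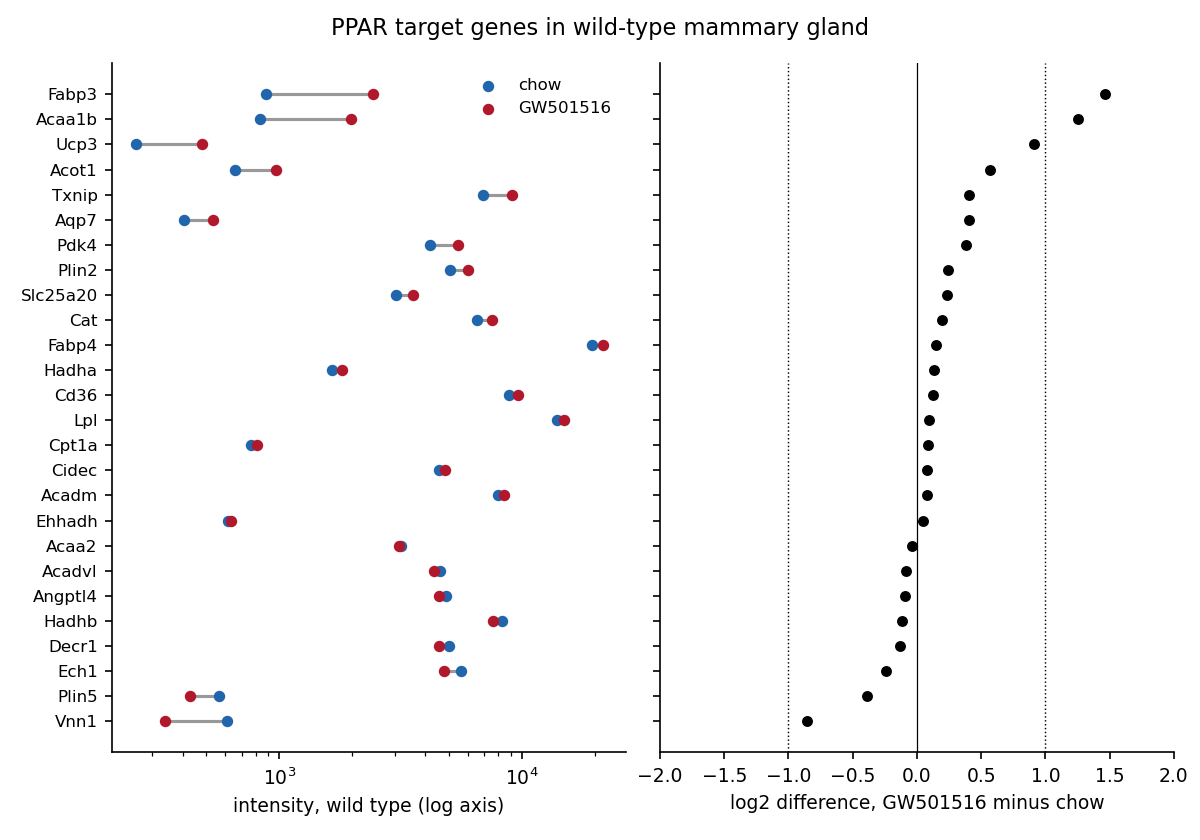
The 26 kept PPAR target genes in wild type, with intensity on chow and on GW501516 on a log axis (left) and the log2 difference (right, dotted lines at 2-fold), each from 1 pool per diet. Fabp3 and Acaa1b lie beyond 2-fold, and the others lie between -0.85 for Vnn1 and 0.92 for Ucp3.

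In the 300-base promoters of the 20 kept target genes in the table, the perfect direct repeat of AGGTCA with 1 base between, searched on both strands, was found in 0, beside 0.0444% of all promoters. The single hexamer AGGTCA was found in 9 (45.0%), beside 4335 of the 27025 promoters. No match says only that these letters are not in this window.

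Pathways downstream of these targets showed small differences. Of 19 kept genes of mitochondrial fatty acid oxidation 0 were called (beside 6.43% of all genes), with a median of 0.05 and a range from -0.22 to 0.37. Of 34 kept genes of the respiratory chain and ATP synthase 0 were called, with a median of 0.07. Peroxisomal oxidation had 1 gene called of 15, Acaa1b, a share near that over all genes.

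More genes of fat and sterol synthesis lay above 0 than below it, beside 45.0% above 0 and 3.18% called higher over all genes. Of 21 kept genes of fatty acid and triglyceride synthesis 3 were at least 2-fold higher, 19 were above 0 and the median was 0.40. Elovl6, which elongates palmitate, read 1877 and 4315, 2.30-fold higher. Acss2, which makes acetyl-CoA from acetate, read 1568 and 3521, 2.25-fold higher. Elovl3, an elongase of brown fat and skin, was 3.77-fold higher, whereas Fasn, fatty acid synthase, read 10070 and 12963 and Scd1, the main desaturase, 15224 and 15529. Of 17 kept cholesterol genes 14 were above 0 and 1 was called, Sc5d (381 and 777.1), with a median of 0.30. Cell cycle genes lay on the other side of 0: 21 of 26 were below 0 and 0 were called, with a median of -0.21. Birc5, survivin, read 359.3 and 229.5 and Mki67, the proliferation marker, 447.5 and 401.4.

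Genes in none of the lists that stood at the top were mostly known from muscle. Asb5 and Asb11 (32.7-fold and 30.0-fold higher) encode ankyrin repeat proteins, Cmya5 (78.6 and 2191) a protein of the muscle Z-disc region and Apobec2 (159.1 and 3905) a deaminase family member of muscle. Neu2, a cytosolic sialidase, read 0.6 and 708.3, at least 34.6-fold higher. The lowest unlisted genes were of lymphocytes. Ighv14-2, a variable segment of immunoglobulin heavy chains, read 819.8 and 15.9, a log2 difference of -5.32 against the floor, and Trbv1, one of T cell receptor β chains, 16.5-fold lower (2250 and 136.4). Ccr9, a homing receptor of lymphocytes, was at least 14.1-fold lower and Ptprcap, a partner of CD45, 10.4-fold lower.

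Hox genes, transcription factors whose expression marks position along the body, were looked at after their values were seen. Of 31 with a probe set 8 were kept. Of these, 3 were at least 2-fold higher (beside 3.18% of all genes) and 2 lower (beside 3.25%). Hoxa5 reached the limit for kept genes solely on the wild-type array on GW501516, and Hoxc9 solely on that on chow. The counts are thus partly set by that limit, and they support nothing in a group picked after its values were seen. Hoxa5 read 55.1 on chow and 179.7 on GW501516 (3.26-fold higher), Hoxc4 77.1 and 176 (2.28-fold) and Hoxd8 260.4 and 573 (2.20-fold). Hoxa9 read 464.7 and 146.5 (3.17-fold lower) and Hoxc9 234.2 and 104.9 (2.23-fold lower). Hoxb2, Hoxc8 and Hoxd9 differed by less than 2-fold. In MMTV-PPARd the same 5 genes had the same direction, with Hoxa5 at 54.9 and 118.4 and Hoxa9 at 215.7 and 118.5. Tbx15, a patterning factor that differs between fat depots, was 2.90-fold higher in wild type (220.4 and 638.2) and Lhx8 2.30-fold higher (85 and 195.4). The part of the site of excision in these values was not tested.

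**Figure D5:**
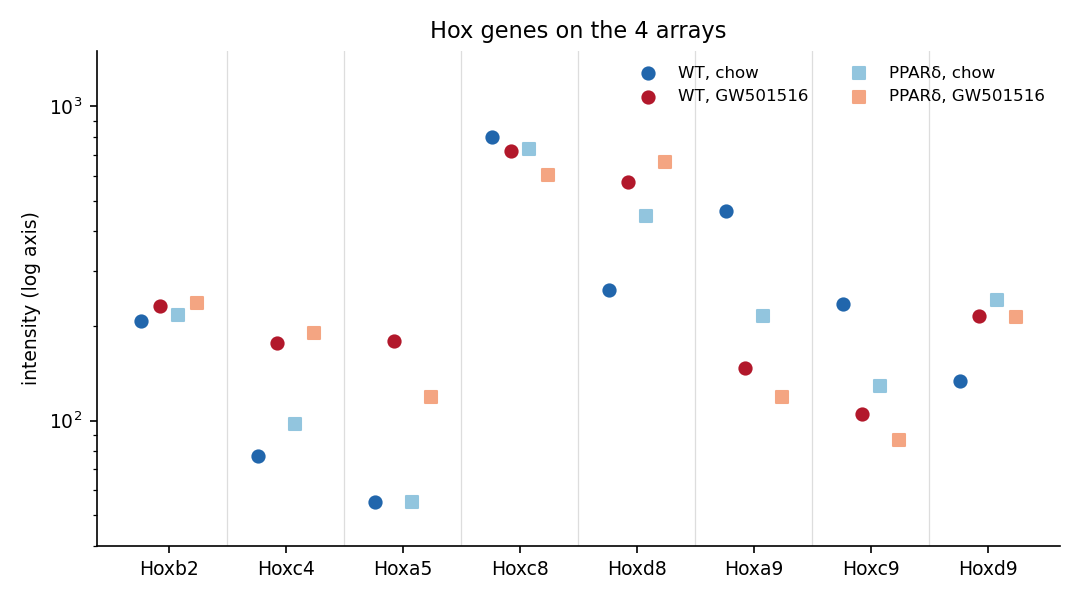
Intensity on a log axis of the 8 kept Hox genes, ordered by position number, on the 4 arrays, each point 1 pool of 5 mice (circles, wild type, and squares, MMTV-PPARd). Hoxc4, Hoxa5 and Hoxd8 are higher on GW501516 in both genotypes, and Hoxa9 and Hoxc9 are lower.

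Probe sets of the same gene gave the only measure of technical scatter. Over 2536 genes with another kept probe set, the kept probe set's difference minus the median of the others had an SD of 0.35 (log2). This holds no scatter between mice or arrays. Of 98 called genes with another kept probe set, 74 (75.5%) had others at least 2-fold the same way, and for 4 the others went the opposite way (Ccr2, Ighm, Pdlim7 and Tpm1).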

How the data were processed

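RNA of mammary gland was measured on 4 Affymetrix arrays of 22690 probe sets, each 1 pool of 5 mice, per the labels' protocols, with cRNA made from 6 µg of RNA. The deposited values were used as intensity on a linear scale. Their mean without the outer 2% was the same on each array, and how they were scaled is not stated. The summarisation method is not given in the sources used here, nor is the scanner software. Gene names came from the platform's annotation, updated by gene ID through RefSeq: 20393 probe sets had 1 gene symbol (20364 matched by ID), 691 had several and 1606 none, and only the first were used. The floor and the filter are the 25th and 50th percentiles of all values. A gene was called at a 2-fold difference. With 1 pool per group no test, error or p-value was computed.

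Genes were named from the 20 highest and 20 lowest genes, the 10 highest and 10 lowest in no list, up to 4 largest of each of 49 gene lists, all PPAR targets and receptors, Gapdh and Actb, and other list members by role, and not all that this rule allows are printed. The members and lists were chosen with earlier results of these data known. An item that the rule selects is not reported here. Other scalings, floors, filters and probe set choices were tried, and the steps were checked on simulated data. Python 3.11.15, pandas 2.3.3, NumPy 2.4.6 and matplotlib 3.10.9 were used. Promoter windows were the first listed per gene in RefSeq.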

Additional observations from a re-analysis of the deposited data

Results flagged for a closer look

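9 named genes were at least 2-fold different on GW501516 in wild type and at least 2-fold the other way in MMTV-PPARd, and these differences between genotypes were not tested. Most named genes were picked for large differences in wild type, and no count over all kept genes is given. The 9 are thus a description and support nothing further. Higher in wild type and lower in MMTV-PPARd were Elovl3, an elongase (log2 difference 1.92 in wild type, -3.23 in MMTV-PPARd), Fos, an immediate early factor (1.92 and -1.01), Igha (1.13 and -2.30) and Cdh1 (1.01 and -1.17). Lower in wild type and higher in MMTV-PPARd were Greb1, an oestrogen response gene (-2.36 in wild type), Ngfr, the nerve growth factor receptor (-2.01 and 1.41), Scnn1g, a sodium channel subunit (-1.38 and 2.94), Nnat (-1.33 and 1.58) and Sprr1a, a gene of cornified epithelium (-1.28 in wild type). Greb1 and Sprr1a were under the floor in MMTV-PPARd on chow (15.9 and 17.1) and read 71.5 and 76.7 on GW501516, which is at least 3.49-fold higher for Greb1 and at least 3.74-fold for Sprr1a. Both reached the limit for kept genes solely in wild type on chow (149.1 and 229.7), and Scnn1g solely in MMTV-PPARd on GW501516 (896.5). The MMTV-PPARd array on chow, which these comparisons use, stood apart in control probe sets (BioB 32.4, against 438.1 to 519 on the others). For Igha the chow values were far apart, at 229.4 in wild type and 6955 in MMTV-PPARd. For 5 of these genes (Elovl3, Fos, Cdh1, Ngfr and Nnat) the arrays on GW501516 are given for comparison: Elovl3 read 359.7 and 89.2, Fos 1486 and 1394, Cdh1 912.1 and 814.6, Ngfr 152.7 and 137.5 and Nnat 366.8 and 517 in wild type and MMTV-PPARd.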

How the results depend on the processing

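Of 241 named genes, none of the 119 that differed at least 2-fold reversed under the alternatives tried, though Muc1 had no difference with the floor at the 40th percentile. The 249 higher and 255 lower genes became 376 higher with probe sets in place of genes, 394 lower with no filter and 153 lower with a filter of 300. Lower genes outnumbered higher ones as reported, but higher ones did so with the floor at the 10th percentile (257 and 256), a filter of 300 (185 and 153), cross-binding probe sets left out (211 and 193) and probe sets in place of genes (376 and 366). The median of T cell genes, -3.74, was -2.13 with the floor at the 40th percentile and -3.36 with no filter. The median of B cell genes, -3.03, was -3.54 with the floor at the 10th percentile, -1.91 at the 40th, -3.45 with no floor, -3.84 with a filter of 300 and -3.77 when probe sets prone to bind related transcripts were left out. The milk median of 0.56 was 1.12 with the filter on the wild-type arrays alone, which leaves out genes low on both. The salivary median of 3.35 was 1.83 with the floor at the 40th percentile, 2.83 with no filter and 4.05 with a filter of 300. That of lymph node stroma, -0.90, ran from -1.26 to -0.38, and that of dendritic cell genes, -0.62, was -1.69 with a filter of 300. Otherwise the cause was not tested. The sarcomere median ran from 3.73 to 3.96 and the PPAR target median from 0.08 to 0.13. Of the called genes 49.4% were higher, against 49.6% under quantile normalization and 48.0% with medians aligned. Without the muscle, lymphocyte and lymph node lists 196 genes were higher and 207 lower. The medians of the plasma cell, endothelium, citric acid cycle, immediate early, stress, ribosomal protein and reference lists lay near 0. They changed sign under at least 1 alternative, as did those of the nerve and ovarian hormone lists. The nerve median, -0.07, ran from -0.75 to 0.05, and the ovarian hormone median, -0.26, from -0.30 to 0.28. Values near the floor limit the folds of dim genes. No paired analysis was possible because each group was 1 array.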

Other observations

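Of 14 kept clock genes 12 were above 0 in wild type on GW501516, beside 45.0% of all genes, and 1 was at least 2-fold higher, beside 3.18% of all, with a median log2 difference of 0.41. Rora, a nuclear receptor of the clock, read 235.6 on chow and 494.9 on GW501516, and Per2, a repressor of the loop, 217.1 and 401.1. Arntl, the activator of the loop, was on the other side (100.9 and 56.1). In MMTV-PPARd Arntl read 157.3 and 54.6 and Per2 212.1 and 311.1. The time of day at which tissue was taken was not given in the sources used here, and its part was not tested.

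Acute phase and innate defence genes were mixed: of 12 kept, 4 were called higher (beside 3.18% of all genes) and 1 lower (beside 3.25%). Fgb reached the limit for kept genes solely on the wild-type array on GW501516, and Ccl2 solely on that on chow. The counts are thus partly set by that limit. Fgb and Fgg were brighter in wild type on GW501516 than on the other arrays. Fgb, a fibrinogen chain, read 63.5 on chow and 309.9 on GW501516, and 32 and 32.7 in MMTV-PPARd. Fgg, another chain, read 291.1 and 775.8, and 105.8 and 95.1 in MMTV-PPARd. Saa1, a serum amyloid protein, read 9.2 and 82.5, and 428.8 and 2794 in MMTV-PPARd. Lcn2, a defence protein of epithelium and fat, was higher (3141 and 6474), whereas Hp, haptoglobin, read 8151 and 4756 and Ccl2, a chemokine for monocytes, 213.6 and 85.3. Among immediate early genes Fos read 394 and 1486 and Nr4a1 177.7 and 513.2, whereas Egr2 read 1237 and 806. Ido1, a tryptophan-degrading enzyme induced by interferon, read 718.3 on chow and 135.9 on GW501516, and 47.4 and 68.1 in MMTV-PPARd.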
